A study of Mus musculus with 2 samples.

Results

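Kupffer cells are the macrophages that reside in the liver, and they were followed here in liver metastases grown from 4T1, a triple-negative mammary carcinoma line of the mouse. The members are the cells that the authors labelled as Kupffer cells in their deposited cell table, 1290 of 44371 cells (2.91%), of which 540 came from the control library and 750 from the library of the silenced cells. The injected 4T1 cells carried either a scrambled control sequence (shSCR) or an shRNA that silences Zdhhc17 (shZdhhc17), a palmitoyltransferase gene, delivered by lentivirus with puromycin selection, so the shRNA was in the cancer cells and not in the Kupffer cells of the host. Hosts were female BALB/c mice 6 to 8 weeks old. They received 250000 cells into the spleen, which was then removed, and their metastases were dissected on day 14. Cells of 3 dissociations were pooled in equal numbers for each group before capture, so each group is 1 library and single mice cannot be told apart. Differences are therefore set against counting error only, and no test between the groups was possible.

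Kupffer cells line the liver sinusoids, the wide capillaries through which portal blood passes, beside the sinusoidal endothelium. They take up bacteria, debris, aged red cells and circulating tumour cells from the blood, recycle the iron of haem, and are largely seeded before birth, while most macrophages of a tumour derive from blood monocytes. Mouse Kupffer cells are recognised by Clec4f, a lectin that binds galactose-bearing sugars, Vsig4, a receptor for complement-coated particles, and Marco, a scavenger receptor for bacteria. The authors placed them, together with the non-Kupffer macrophages, monocytes and conventional dendritic cells, in a class named monocyte-derived, and that name is theirs.

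The label could not be checked against marker levels, because expression values per gene were not analysed here. The deposited gene tables hold flags over all cells, and they carry limited information on the markers. Clec4f (ENSMUSG00000014542.3, GRCm38 chromosome 6, 83644542 to 83656187, minus strand), Vsig4 (ENSMUSG00000044206.3, chromosome X, 96247203 to 96293438, minus strand) and Marco (ENSMUSG00000026390.7, chromosome 1, 120474538 to 120505024, minus strand) are protein-coding genes, and all 3 were among the 1000 most variable genes of the whole series. Of all 28523 genes in that table, 3.51% were so flagged. In the list of Kupffer identity genes 7 of 12 were flagged: the 3 markers, Cd5l, which encodes a secreted macrophage protein, C6 of the complement pore, the haemoglobin scavenger receptor gene Cd163, and Slc40a1, which encodes the iron exporter ferroportin. Timd4, a receptor for dying cells, Clec1b, Folr2 and the general macrophage genes Adgre1 and Csf1r were listed but not flagged. The flags were set over all cells, so they show that these genes varied somewhere in the series, not in which cells. Flags were also common in marker lists of other types, with 6 of 6 neutrophil, 6 of 6 endothelial and 3 of 3 B cell markers. They were less common for hepatocytes (2 of 4) and 4T1 epithelium (0 of 3).

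A second table lists the genes of the neutrophil set, in which 75.5% of the genes of the full table recur. Of the 12 Kupffer identity genes, 4 recurred there (Clec1b, Folr2, Slc40a1 and Csf1r), and Clec4f, Vsig4 and Marco did not. All markers of monocytes, neutrophils and dendritic cells (6 each), of T and NK cells (4), and of B cells, erythroid cells and 4T1 epithelium (3 each) recurred. The other lists recurred in part or not at all: 3 of 8 markers of other macrophages, 2 of 6 endothelial ones, 1 of 4 of stellate cells and fibroblasts, and none of the 4 hepatocyte markers. Recurrence in this table therefore does not mark a gene as one of neutrophils. Lists of Kupffer cell functions were read for the flag of variable genes, which 3.51% of all genes carried. Among the variable genes were 5 of 10 genes of iron and haem handling (Slc40a1, Hmox1, Cd163, Hpx and Trf), where Hmox1 encodes the enzyme that opens the haem ring. They also held 6 of 9 complement genes (C1qa, C1qb, C1qc, C3, C6 and Vsig4), 4 of 13 scavenger and clearance receptors (Msr1, Cd36, Mrc1 and Stab2) and 5 of 8 genes of lipid-associated macrophages (Gpnmb, Spp1, Fabp5, Lpl and Apoe). Of 10 transcription factor genes of Kupffer cells, 1 (Zeb2) was flagged. Among the matched niche and growth factor genes, 1 of 8 was flagged (Csf1, the main macrophage growth factor), and none of 3 phagocytic checkpoint genes was. Counts of 1 or none in lists this short cannot be told from the share over all genes.

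Before any comparison, the cell barcodes of the libraries were compared. A total of 609 barcodes occurred in both, and 96 of these (15.8%) had the same label in both. Among Kupffer cells, 12 of shSCR and 25 of shZdhhc17 had such a barcode, and 1 barcode was a Kupffer cell in both libraries. Results are given without these cells where that could matter.

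Kupffer cells made up a larger part of the shZdhhc17 library than of the shSCR library, also when only macrophages were counted. Relative to 6 of 16 other types, among them endothelial cells, cancer cells and B cells, the counting interval included 1, as given below. Among annotated macrophages, 20.4% were Kupffer cells in shZdhhc17 (750 of 3684, exact Clopper-Pearson 95% interval 19.1 to 21.7) and 14.7% in shSCR (540 of 3667, 13.6 to 15.9), a ratio of 1.38 (1.25 to 1.53, log-normal counting interval). Over all cells the ratio was 1.48 (1.32 to 1.65). The number of non-Kupffer macrophages was 2934 in shZdhhc17 and 3127 in shSCR, so both libraries held nearly the same number of macrophages, with more of them labelled as Kupffer cells in shZdhhc17. Without cells of shared barcodes the ratio among macrophages was 1.37 (1.24 to 1.52). Intervals cover counting error only, and the spread between mice is unknown.

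With wider denominators the difference remained, and its size depended on which other cells were counted. In the monocyte-derived class, Kupffer cells were at 13.6% in shZdhhc17 (12.7 to 14.5) and 8.72% in shSCR (8.03 to 9.45), a ratio of 1.55. Among immune cells they were at 6.75% (6.29 to 7.23) and 3.78% (3.47 to 4.11), a ratio of 1.79 (1.60 to 1.99). They supplied 3.74% of the UMIs (molecule counts) of the shZdhhc17 library and 2.63% of those of shSCR. In the plot of shares the intervals of the libraries are separate for each of the 5 denominators.

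**Figure D1:**
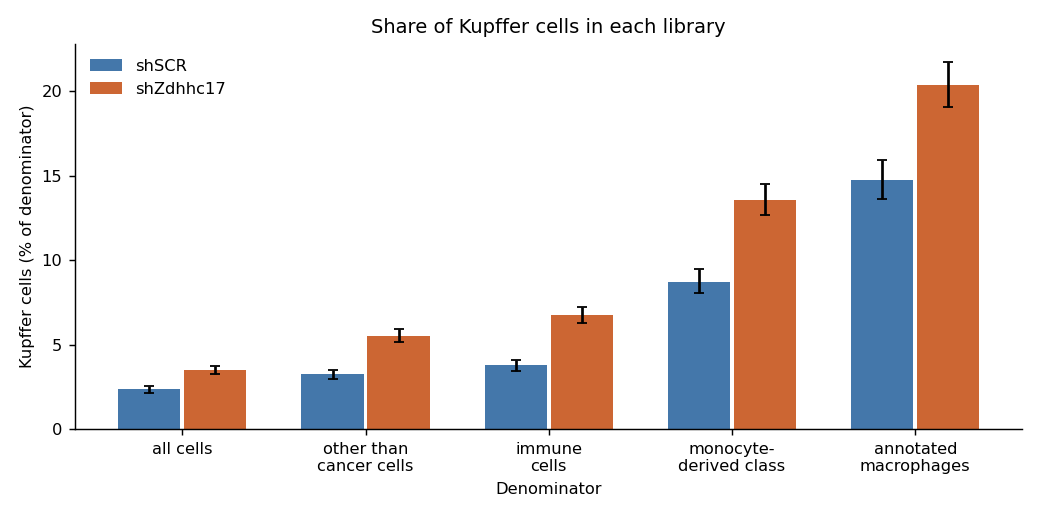
Kupffer cells as a percent of each of 5 denominators (horizontal axis) in the shSCR and shZdhhc17 libraries, 1 pooled library per group; bars are shares and error bars exact 95% binomial intervals. The share is higher in shZdhhc17 for each denominator, from 3.49% against 2.36% of all cells to 20.4% against 14.7% of annotated macrophages.

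Set against each of the 16 other annotated types in turn, Kupffer cells were more numerous in shZdhhc17 relative to 10 of them, with counting intervals that left out 1. The 3 largest of these ratios were for myeloid cells that come from the bone marrow. There were 0.173 Kupffer cells per neutrophil in shZdhhc17 and 0.0819 in shSCR, a ratio of 2.12 (1.88 to 2.38). Per cell annotated as an MDSC (a suppressive myeloid cell) the ratio was 2.18 (1.85 to 2.56), and per monocyte it was 1.92 (1.69 to 2.18). These 3 types were themselves a smaller part of shZdhhc17 than of shSCR. Neutrophils were at 20.1% and 28.8% of the libraries, MDSCs at 2.10% and 3.10%, and monocytes at 7.47% and 9.72%. The 3 ratios therefore hold both the higher share of Kupffer cells and the lower shares of these types. Per conventional dendritic cell it was 1.75 (1.43 to 2.14), and per T cell 1.56 (1.31 to 1.87).

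Relative to the other 6 types the interval included 1. Endothelial cells were among these, under a label that does not tell sinusoidal endothelium from that of other vessels. There were 1.90 Kupffer cells per endothelial cell in shZdhhc17 (750 to 394) and 1.99 in shSCR (540 to 272), a ratio of 0.959 (0.793 to 1.16). Endothelial cells themselves were at 1.83% and 1.19% of the libraries, a ratio of 1.54 (1.32 to 1.79), close in size to that of Kupffer cells. Relative to cancer cells the ratio was 1.09 (0.969 to 1.22), and relative to B cells 1.06 (0.865 to 1.31). Hepatocytes, the parenchymal cells of the liver, were at 0.116% in shZdhhc17 (25 cells) and 0.127% in shSCR (29 cells), and the ratio of Kupffer cells per hepatocyte was 1.61 (0.933 to 2.78). Cholangiocytes numbered 11 and 14. How much normal liver was dissected with the metastases was not measured, and its part in the Kupffer share was not tested.

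Kupffer cells were among the deeper cells of both libraries. Their median was 10071 UMIs in shSCR (quartiles 7146 and 13480, range 674 to 28742) and 8256 in shZdhhc17 (6327 and 10577, range 654 to 26382). This was rank 4 of the 17 types in each library, after MDSCs, cancer cells and fibroblasts. Non-Kupffer macrophages had medians of 8362 and 6959.5 UMIs, so that Kupffer cells held 1.20 times as many in shSCR and 1.19 times as many in shZdhhc17. Both populations were shallower in shZdhhc17 by almost the same factor, 0.820 for Kupffer cells and 0.832 for non-Kupffer macrophages. The median number of detected genes per Kupffer cell, not matched for depth, was 3146 in shSCR and 2867.5 in shZdhhc17.

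A small group of Kupffer cells was far below the rest in depth. Cells under 2000 UMIs numbered 35 in shSCR (6.48%) and 50 in shZdhhc17 (6.67%), against 6.84% and 7.46% of non-Kupffer macrophages. The curves of UMIs and detected genes show this as a shallow foot below the main rise.

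**Figure D2:**
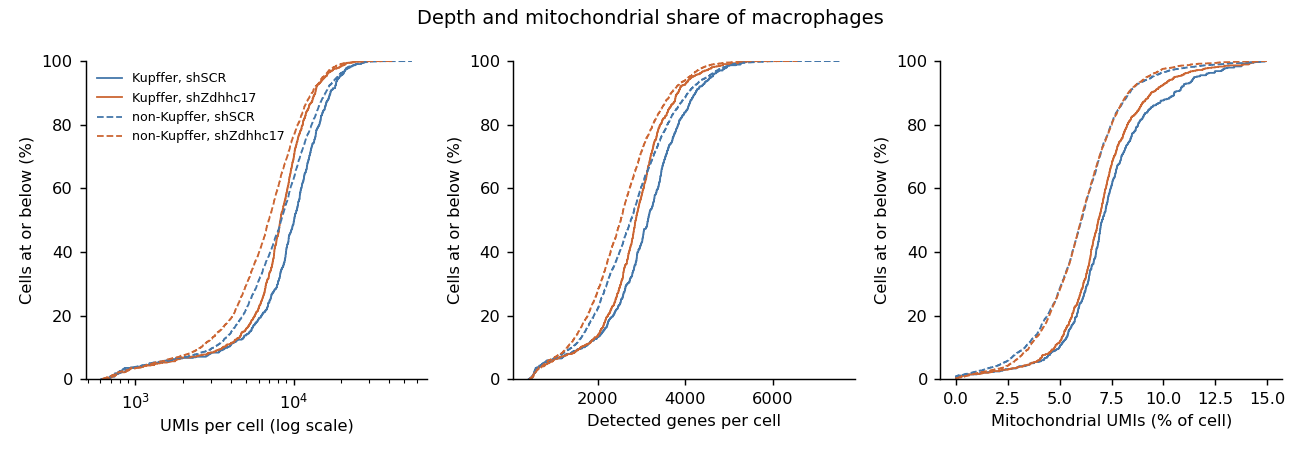
Percent of cells at or below a value (vertical axis) for UMIs per cell (log scale), detected genes per cell and the mitochondrial share of UMIs; solid lines are Kupffer cells and dashed lines non-Kupffer macrophages, in shSCR and shZdhhc17. Kupffer cells lie to the right of non-Kupffer macrophages of the same library in all 3 panels over most of the range, with median mitochondrial shares of 7.06% and 6.86% against 6.06% and 6.03%.

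Because the libraries differed in depth, the Kupffer share among macrophages was also read within 10 classes of equal size by UMIs. It was higher in shZdhhc17 in 10 of 10 classes, with separate intervals in 4, which lay next to each other from 5709 to 10248 UMIs. The largest ratio was at 5709 to 6789 UMIs, where Kupffer cells were 19.2% of shZdhhc17 macrophages (79 of 412) and 8.36% of shSCR macrophages (27 of 323), a ratio of 2.29 (1.52 to 3.46). The largest difference in percentage points was at 8976 to 10248 UMIs, where they were at 29.5% and 16.7%, a ratio of 1.76 (1.34 to 2.33). In the shallowest class (607 to 2894 UMIs) they were at 14.9% and 12.3%, and in the deepest (14770 to 55809) at 22.4% and 19.9%, with overlapping intervals in both. Intervals also overlapped in the 4 other classes.

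**Figure D3:**
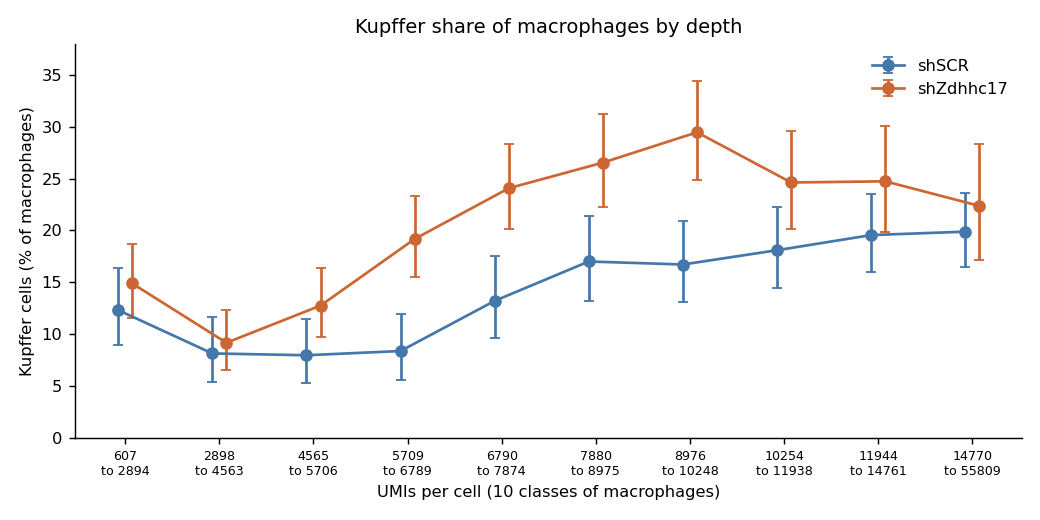
Kupffer cells as a percent of annotated macrophages (vertical axis) in 10 classes of UMIs per cell (horizontal axis), in shSCR and shZdhhc17; points are shares and error bars exact 95% binomial intervals. The shZdhhc17 points lie above the shSCR points in each class, from 9.16% against 8.13% in the second class to 29.5% against 16.7% in the seventh.

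At matched depth, Kupffer cells and non-Kupffer macrophages differed little in detected genes. In the class of 8976 to 10248 UMIs, Kupffer cells had medians of 3041.5 genes in shSCR and 3136 in shZdhhc17, against 2989 and 3049 in non-Kupffer macrophages. The median was higher in Kupffer cells in 7 of 10 classes in shSCR and in 9 of 10 in shZdhhc17. Between the libraries, Kupffer cells of shZdhhc17 had the higher median of detected genes in 9 of 10 classes. Non-Kupffer macrophages went the same way in every class but the deepest, where they had 4269 genes in shZdhhc17 and 4313 in shSCR. The difference was therefore not particular to Kupffer cells. Over Kupffer cells of all depths the median was lower in shZdhhc17. Across cells, detected genes followed UMIs closely within each library (Spearman rho 0.982 over 540 cells and 0.982 over 750), which describes 2 counts made from the same reads.

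Kupffer cells had a larger mitochondrial share of UMIs than non-Kupffer macrophages in both libraries. The median was 7.06% in shSCR (quartiles 6.10 and 8.40) and 6.86% in shZdhhc17 (5.91 and 7.96), against 6.06% and 6.03%. The median was higher in Kupffer cells in 10 of 10 classes of UMIs in each library. Endothelial cells ranked first of the 17 types in both libraries (7.52% and 7.77%), and Kupffer cells had rank 5.

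The libraries differed mainly in the upper tail of this measure. Kupffer cells above 10% mitochondrial UMIs made up 12.6% in shSCR (68 of 540, 9.91 to 15.7) and 7.60% in shZdhhc17 (57 of 750, 5.81 to 9.73), a ratio of 0.604 (0.432 to 0.843). Among non-Kupffer macrophages such cells were at 3.55% and 2.49%, a ratio of 0.701 (0.524 to 0.938), with exact intervals that overlapped (2.93 to 4.26 and 1.955 to 3.12). A lower share in shZdhhc17 was not particular to macrophages. Monocytes were at 2.66% in shSCR and 1.43% in shZdhhc17, and cancer cells at 20.3% and 17.6%. The share was higher in shZdhhc17 in endothelial cells (21.3% and 22.3%), T cells, hepatocytes and cholangiocytes only, and basophils had no such cell in either library. Above a depth of 6800 UMIs, Kupffer cells with a high mitochondrial share were at 8.10% in shSCR (34 of 420, 5.67 to 11.1) and 2.70% in shZdhhc17 (14 of 519, 1.48 to 4.48). Below that depth they were at 28.3% and 18.6%, a ratio of 0.657 (0.444 to 0.972), with overlapping exact intervals. Both limits were chosen after the values were seen. Within the 10 classes of UMIs, the median mitochondrial share of Kupffer cells was higher in shSCR in 7 and higher in shZdhhc17 in 3. It was 8.80% in shSCR and 7.49% in shZdhhc17 at 4565 to 5706 UMIs, and 4.18% and 5.60% at 607 to 2894 UMIs. The highest mitochondrial share of any deposited cell was 14.997%, so the tail beyond that value was not analysed here.

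In the authors' first clustering of all cells, 1238 of the 1290 Kupffer cells (96.0%) fell into 3 clusters, numbered 19, 28 and 47. These clusters held little else: of their 1325 cells, 30 were non-Kupffer macrophages and 57 carried doublet labels. Cluster 19 held 38.1% of the Kupffer cells of shZdhhc17 (286 cells, 34.6 to 41.7) and 29.6% of those of shSCR (160 cells, 25.8 to 33.7), a ratio of 1.29 (1.10 to 1.51). Cluster 28 held 28.8% (216) and 34.1% (184), a ratio of 0.845 (0.718 to 0.994). Cluster 47 held 28.3% (212) and 33.3% (180), a ratio of 0.848 (0.719 to 1.00). The exact intervals of the shares overlapped for both clusters. Which genes set the 3 clusters apart was not analysed here, so they are named by number only. Among cells of low mitochondrial share, of which 144 and 89 were Kupffer cells, the ratio of cluster 19 was 1.12 (0.749 to 1.67).

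As a share of the whole library, cluster 19 with all its cells made up 1.42% of shZdhhc17 and 0.766% of shSCR. Clusters 28 and 47 were at 1.14% and 0.892%, and at 0.986% and 0.801%. All 3 therefore held more of the shZdhhc17 library, cluster 19 by the widest margin. In depth, cluster 47 had the fewest UMIs, with medians of 7547 in shZdhhc17 and 8685 in shSCR. Cluster 19 had medians of 8470.5 and 10896.5, a ratio of 0.777, and cluster 28 had 9577 and 11002.5, a ratio of 0.870. The high mitochondrial tail was smallest in cluster 19, at 5.94% of its Kupffer cells in shZdhhc17 and 7.50% in shSCR. It was at 8.80% and 13.0% in cluster 28 and at 8.49% and 15.6% in cluster 47, and the exact intervals of the 3 clusters overlapped in shZdhhc17 and in shSCR. Between the libraries, the ratio of this tail was 0.793 (0.388 to 1.62) in cluster 19, 0.674 (0.382 to 1.19) in cluster 28 and 0.546 (0.312 to 0.953) in cluster 47.

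The remaining 52 Kupffer cells, 36 of shZdhhc17 and 16 of shSCR, were spread over 10 clusters dominated by non-Kupffer macrophages, with at most 13 in any cluster. They made up 4.80% (3.38 to 6.58) and 2.96% (1.70 to 4.77) of the Kupffer cells, with overlapping intervals. Of these 52 cells, 42 had a cell of another label as nearest neighbour on the authors' UMAP (a map that places cells of similar expression together, without a unit), against 12 of 446 in cluster 19, 28 of 400 in cluster 28 and 5 of 392 in cluster 47. With clusters 19, 28 and 47 alone, the Kupffer share ratio was 1.45 (1.30 to 1.62).

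On the UMAP the Kupffer cells formed a compact group apart from the other macrophages, and 1203 of 1290 (93.3%) had another Kupffer cell as nearest neighbour. Labels were named from clusters of the same expression data that the map shows. This closeness, like the few other cells in clusters 19, 28 and 47, is therefore no check of the label. The nearest cell had another label for 6.11% of shSCR Kupffer cells (33 of 540, 4.24 to 8.48) and 7.20% of shZdhhc17 ones (54 of 750, 5.45 to 9.29). In 62 of these 87 cases it was a non-Kupffer macrophage, 25 in shSCR and 37 in shZdhhc17, and in 2 cases a monocyte. The other neighbours carried the doublet labels D18, D19 or D20. Cluster 28 lay on the side towards the other macrophages and cluster 47 on the far side, with cluster 19 between them, as the map shows.

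**Figure D4:**
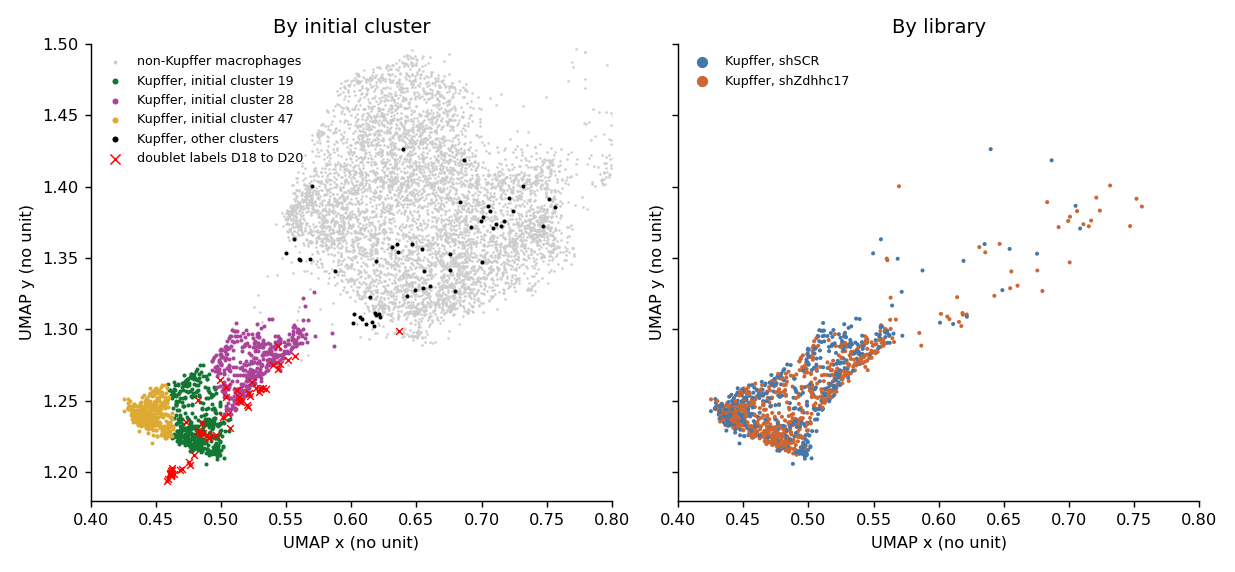
Position of Kupffer cells on the authors' UMAP (both axes without unit), coloured by initial cluster (left, with non-Kupffer macrophages in grey and doublet labels as crosses) and by library (right); each point is a cell, and the window leaves out part of the non-Kupffer macrophages. Clusters 19, 28 and 47 hold 1238 cells in a compact group, and the other 52 lie among the non-Kupffer macrophages.

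The libraries were less evenly mixed among Kupffer cells than among non-Kupffer macrophages. Of the 15 nearest Kupffer neighbours of an shSCR Kupffer cell, a mean of 48.9% came from shSCR, against 35.9% for an shZdhhc17 Kupffer cell, where 41.9% of all Kupffer cells were from shSCR. This is a gap of 13.1 percentage points, and the same measure gave 6.64 points in non-Kupffer macrophages (54.7% and 48.0%). Within cluster 19 the values were 49.8% and 28.4%, a gap of 21.5 points. The gap was 9.74 points in cluster 28 and 6.06 points in cluster 47. The 15 neighbours are a larger part of 1290 cells than of 6061, and neighbouring cells are not independent, so no test was made of this difference.

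The authors' reclustering of the Kupffer cells, done apart from the other types, cut them into 116 subclusters of 4 to 25 cells with a median of 11. Of the 73 subclusters with at least 10 cells, 15 held more than 80% shZdhhc17 cells and 6 held under 20%, where 57.7% of their cells came from that library. The largest, L.1 with 25 cells, held 22 from shZdhhc17 and 3 from shSCR, and L.2 held 20 and 4. Both lay wholly in initial cluster 19. Subclusters of at least 10 cells with cells of 1 library only numbered 5: L.13 (16 cells), L.30, L.35 and L.38 (13 cells each) were all shZdhhc17, and L.17 (15 cells) was all shSCR. Of these 5, 4 had most of their cells in cluster 19 and L.38 lay in cluster 47. Among 248 subclusters of non-Kupffer macrophages of at least 10 cells, which were larger (median 23 cells), none came from 1 library only. Of these 248, 12 held more than 80% shZdhhc17 cells and 18 held under 20%, where 48.3% of their cells came from that library.

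**Figure D5:**
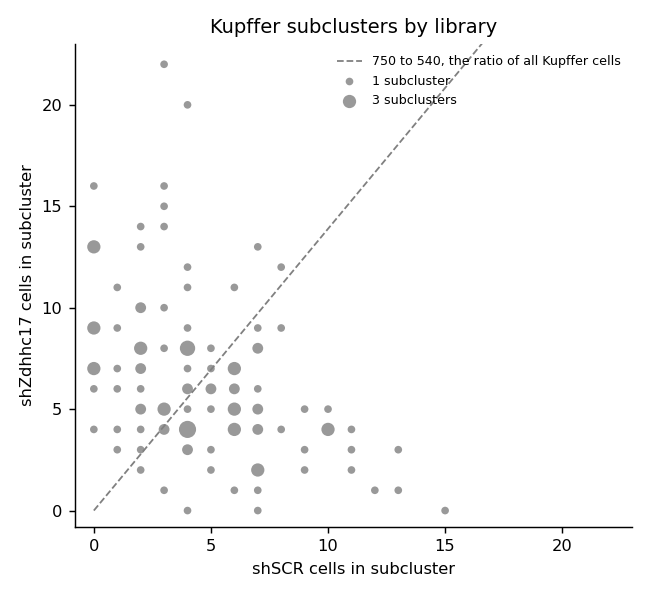
Number of shSCR cells (horizontal axis) and shZdhhc17 cells (vertical axis) in each of the 116 Kupffer subclusters; the area of a point gives the number of subclusters at that position, and the dashed line is the ratio of all Kupffer cells, 750 to 540. Subclusters lie widely on both sides of the line, and 15 lie on an axis, 12 of them with shZdhhc17 cells only and 3 with shSCR cells only.

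With 1 library per group, a subcluster of 1 library cannot be told apart from a trait of that library, such as its depth or the pool of mice. The subclusters of 1 library had medians of 8350.5 UMIs (L.13), 7775 (L.30), 8282 (L.35) and 8095 (L.38) in shZdhhc17, and of 10941 (L.17) in shSCR. These values lie close to the medians of Kupffer cells in their own libraries. Subcluster L.54, with 7 cells of shSCR and 5 of shZdhhc17, had the lowest depth, with medians of 783.5 UMIs and 550 genes. It was the only one of the 116 with a median under 2000 UMIs.

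The same reclustering held 57 cells that the authors called doublets, with markers of more than 1 type, under the labels D18 (22 cells), D19 (7) and D20 (28). They made up 4.42% of the reclustered cells in shSCR (25, 2.88 to 6.46) and 4.09% in shZdhhc17 (32, 2.82 to 5.73), with overlapping intervals. Their median depth was 11559 UMIs, 1.29 times that of Kupffer cells, and it was 10379 for D18, 15687 for D19 and 12228 for D20. The nearest annotated neighbour was a Kupffer cell for 27 of 28 cells of D20 and 6 of 7 of D19, but for 6 of 22 of D18. When D19 and D20 were counted as Kupffer cells, the ratio among macrophages was 1.38 (1.25 to 1.52).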

How the data were processed

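Single-cell RNA was captured on BD Rhapsody, a microwell system, in 2 pooled libraries. The authors' steps, per the file headers, were the BD Rhapsody pipeline, a correction of counts for ambient RNA, clustering, reclustering, and naming of types from markers, with mm10 (GRCm38) symbols. The submitters' processing notes list Seurat 4.1.0. Which tool corrected ambient RNA is not given in the sources used here. Whole-number counts of UMIs and genes per cell are in the deposited cell table. It also holds the percent of UMIs from mitochondrial genes and UMAP coordinates, a score without unit as the authors deposited it. Deposited gene flags came from 2 further tables.

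Members, lists and limits were chosen with earlier results of these data known. Every member of the gene lists was looked up, and those named are the flagged or recurring ones and a few others. Lists of markers of dendritic cells (4 of 6 flagged as variable), T and NK cells (3 of 4), B cells (3 of 3), stellate cells and fibroblasts (4 of 4), erythroid cells (3 of 3), 4T1 epithelium (0 of 3) and other macrophages (5 of 8) were also looked up. So were those of neutrophils (6 of 6), endothelium (6 of 6), monocytes (5 of 6) and hepatocytes (2 of 4). Gene positions are from GENCODE M21 on the same build. Of the names searched, 2 (Bmp9 and Clec7a) were not among the deposited gene names, while Clec7a did have a position in GENCODE.

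Shares have exact (Clopper-Pearson) 95% binomial intervals, and ratios are shZdhhc17 over shSCR with log-normal 95% counting intervals. "Separate" means that exact intervals did not overlap. UMIs mark molecules, and intervals cover counting error only. The shSCR library held 22860 cells and 214842365 UMIs, the shZdhhc17 library 21511 cells and 172527305 UMIs, and a count of 0 would allow shares of up to 0.0131% and 0.0139% (3 cells). Doublet and unknown labels stayed in the denominator of all cells, and no doublet caller was run. The smallest depth in the table was 500 UMIs. Neighbours were found with scikit-learn 1.9.0, and intervals with SciPy 1.17.1. The ratio and weighting functions were tested on simulated data. Alternatives were filters on UMIs and mitochondrial percent, other denominators, scaling or weighting for depth, and added doublets. The removal of shared barcodes, the restriction to 3 clusters and the endothelial and monocyte-derived denominators were added after the data were seen.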

Additional observations from a re-analysis of the deposited data

How the results depend on the processing

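No paired analysis was possible because each group is 1 library and no test was made. Of 39 recomputed shares and ratios of shares, 29 stayed within the counting interval of the reported value. The other 23 recomputed values concern medians, or means in their place. They were set against a 95% range made from the ranked cells, which takes cells and not mice as units and is not printed here. Only values at low mitochondrial percent fell outside it. The ratio of median UMIs per Kupffer cell ranged from 0.817 to 0.886 and that of detected genes from 0.91 to 0.943. The ratios of detected genes were not matched for depth. Within classes of UMIs, the median was higher in shZdhhc17 in 9 of 10 for Kupffer cells, and in all but the deepest for non-Kupffer macrophages. The share of Kupffer cells among all cells, a ratio of 1.48, moved to 1.79 with immune cells as denominator, 1.70 with all but cancer cells, and 1.93 (1.49 to 2.51) at low mitochondrial percent. It was 0.959 per endothelial cell, since endothelial cells were also more numerous in shZdhhc17. The share among macrophages, a ratio of 1.38, moved to 1.66 (1.29 to 2.13) at low mitochondrial percent and to 1.55 in the monocyte-derived class. At low mitochondrial percent (5.57% or less), the difference in median mitochondrial share went from -0.20 to 0.133 percentage points, the ratio of UMIs over non-Kupffer macrophages in shZdhhc17 from 1.19 to 1.32, and the ratio of cluster 28 from 0.845 to 1.01. That limit lies below the Kupffer medians of both libraries, so it keeps 89 and 144 Kupffer cells. The limit also cuts on the mitochondrial share itself, so the difference of 0.133 points says nothing on whether the reported difference holds. The share with another label as nearest neighbour went from 6.11% to 3.15% in shSCR and from 7.20% to 4.93% in shZdhhc17 with a majority of 15 neighbours, and to 5.07% in shZdhhc17 without doublets. The cause was not tested. Weighting to the same spread of UMIs gave ratios of 1.34 for the share of all cells and 1.48 among macrophages. Within classes of UMIs, intervals overlapped in 6 of 10, which held 320 to 508 shSCR and 228 to 415 shZdhhc17 macrophages per class. Classes with separate intervals were of similar size, such as 323 and 412 macrophages at 5709 to 6789 UMIs, where the ratio was 2.29. It was 1.21 (0.834 to 1.75) in the shallowest class and 1.13 (0.835 to 1.52) in the deepest. Why the ratio varied with depth was not tested.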
